A study of Mus musculus with 4 samples.

Results

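Transcripts of 10 genes of fatty acid uptake, storage and oxidation and of their regulation by peroxisome proliferator-activated receptors (PPARs) were followed across the cells of 3 single-cell libraries from mouse liver. The genes were Cd36, Fabp4, Plin2, Pdk4, Cpt1a, Angptl4, Acadl, Hadha, Pparg and Ppard, chosen by name, and all 10 were among the 54456 gene symbols of the count matrices. The series is on liver non-parenchymal cells, the endothelial and immune cells that surround the hepatocytes, of C57BL/6J mice that did or did not receive HFD, a high fat diet, and physical exercise. The libraries were named S, E, HFD_sed and HFD_EXE, 1 for each group and all from mice 30 weeks old. The sources do not spell out S, E, sed and EXE, so the groups are called by these names. Library E was not analysed here, and the 3 comparisons were HFD_sed over S, HFD_EXE over HFD_sed and HFD_EXE over S. How long the interventions lasted and how many mice stand behind a library is not stated in these sources.

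Fatty acids reach a cell from lipoproteins or albumin, pass the membrane with the help of the CD36 receptor and are carried in the cytosol by fatty acid binding proteins such as FABP4, which capillary endothelium and some macrophages make. Surplus fatty acid is esterified and kept in lipid droplets coated by perilipin 2 (Plin2), or enters mitochondria through carnitine palmitoyltransferase 1a (Cpt1a) and is oxidised by enzymes such as the acyl-CoA dehydrogenase Acadl and the trifunctional protein subunit Hadha. PPARs are nuclear receptors that bind fatty acids and, together with the retinoid X receptor, bind DNA at direct repeats of the letters AGGTCA with 1 base between. Pparg is best known from fat cells and macrophages and Ppard from many tissues. The membrane receptor, the binding protein, perilipin 2, Cpt1a, the pyruvate dehydrogenase kinase Pdk4 and the lipoprotein lipase inhibitor Angptl4 are textbook targets of this family.

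Because most of these genes are known PPAR targets, the bases upstream of their starts were searched for the repeat. RefSeq promoter sequences of the build GRCm38.p6 were at hand for 8 of the 10 genes (Acadl, Cd36, Cpt1a, Hadha, Pdk4, Plin2, Ppard and Pparg), in 10 windows of 250 upstream bases, 3 of them for Pparg. The windows of Cd36, Plin2 and Cpt1a are shown, as an example each of uptake, storage and oxidation with a match, 5′ to 3′ on the strand of the gene. Capitals mark the repeat with up to 2 mismatches in Cd36 and Plin2, and in Cpt1a a single AGGTCA element. All 3 matches were on the strand opposite to the gene.
Cd36, chr5:17835897-17836146, minus strand: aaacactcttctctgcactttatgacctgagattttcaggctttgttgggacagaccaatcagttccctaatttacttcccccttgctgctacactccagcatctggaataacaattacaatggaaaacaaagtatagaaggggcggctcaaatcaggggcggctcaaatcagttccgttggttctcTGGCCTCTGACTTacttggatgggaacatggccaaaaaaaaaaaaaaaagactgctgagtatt
Plin2, chr4:86670060-86670309, minus strand: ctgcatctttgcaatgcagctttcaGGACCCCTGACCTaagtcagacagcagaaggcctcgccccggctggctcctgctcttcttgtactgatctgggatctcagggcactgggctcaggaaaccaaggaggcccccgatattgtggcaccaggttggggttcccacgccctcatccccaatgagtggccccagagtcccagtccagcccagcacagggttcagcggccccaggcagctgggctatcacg
Cpt1a, chr19:3323051-3323300, plus strand: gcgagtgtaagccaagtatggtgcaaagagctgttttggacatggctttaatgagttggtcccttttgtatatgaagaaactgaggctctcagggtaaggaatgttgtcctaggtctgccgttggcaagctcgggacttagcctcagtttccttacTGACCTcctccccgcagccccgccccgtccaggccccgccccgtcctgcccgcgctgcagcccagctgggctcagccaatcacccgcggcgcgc
The repeat searched was AGGTCA, any 1 base, and AGGTCA again, on both strands, exact or with mismatches, and the single element was AGGTCA, which the exact repeat contains. No window of these genes held the exact repeat, which 11 of all 32851 windows of the table (0.0335%) held. The form with up to 2 mismatches began 63 bases before the start of Cd36 and 225 bases before that of Plin2, and was found in 1063 windows of the table (3.24%). The single element was in the windows of Cd36, Cpt1a and Plin2 and in 2 of the 3 Pparg windows, and in 4607 windows of the table (14.0%). These matches describe letters only, and binding was not measured.

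The 3 matrices held between 11280 and 11752 barcodes, more than the 5000 to 6000 captured cells per sample that the labels state, and each pair of the 4 libraries had between 29 and 46 barcodes in common. After filters, 10212 cells of S, 10740 of HFD_sed and 10172 of HFD_EXE remained, holding 76875425, 59432022 and 57099173 UMIs (unique molecular identifiers, 1 per transcript molecule captured), with medians of 6150, 4179.5 and 4917.5 UMIs per cell. Cells were clustered without the 10 genes and their pathway, and clusters were named after fixed marker genes. The 7 classes with at least 100 cells in every library were compared: liver sinusoidal endothelial-like (LSEC), Kupffer-like, monocyte-like, conventional dendritic-like (cDC), neutrophil-like, T-like and B-like cells. LSECs numbered 4205, 2737 and 6055 in S, HFD_sed and HFD_EXE, Kupffer-like cells 2564, 694 and 1066, and monocyte-like cells 197, 1281 and 151. Different clusters held most of the LSECs in each library: cluster 1 in S (69.5%), cluster 4 in HFD_sed (80.4%) and cluster 0 in HFD_EXE (65.6%).

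Levels are CPM, a gene's UMIs relative to all UMIs of its class on the usual counts-per-1e6 scale, with an exact Poisson 95% interval, and a comparison is the log2 ratio of 2 levels with its exact conditional 95% interval in brackets. With 1 library per group there was no test between groups, and the intervals cover counting error only. A ratio was called where both libraries together held at least 20 UMIs, the levels differed at least 1.5-fold and the interval excluded no change. The comparisons share libraries, so their ratios are not independent of each other. Of the 70 pairs of a gene and a class, 60 had enough UMIs in HFD_sed over S, and 15 of them were called higher and 12 lower, beside 9.57% and 10.7% of the pairs of all genes. In HFD_EXE over HFD_sed, 9 of 60 pairs were called higher and 10 lower (all genes 9.95% and 8.22%), and in HFD_EXE over S 15 were higher and 5 lower (8.58% and 7.8%). Fabp4 and Cd36 held 10 of the 15 pairs that were higher in HFD_sed than in S, and the levels of these 2 genes in T-like and B-like cells lay near the share of endothelial RNA found there, as set out further on.

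**Figure D1:**
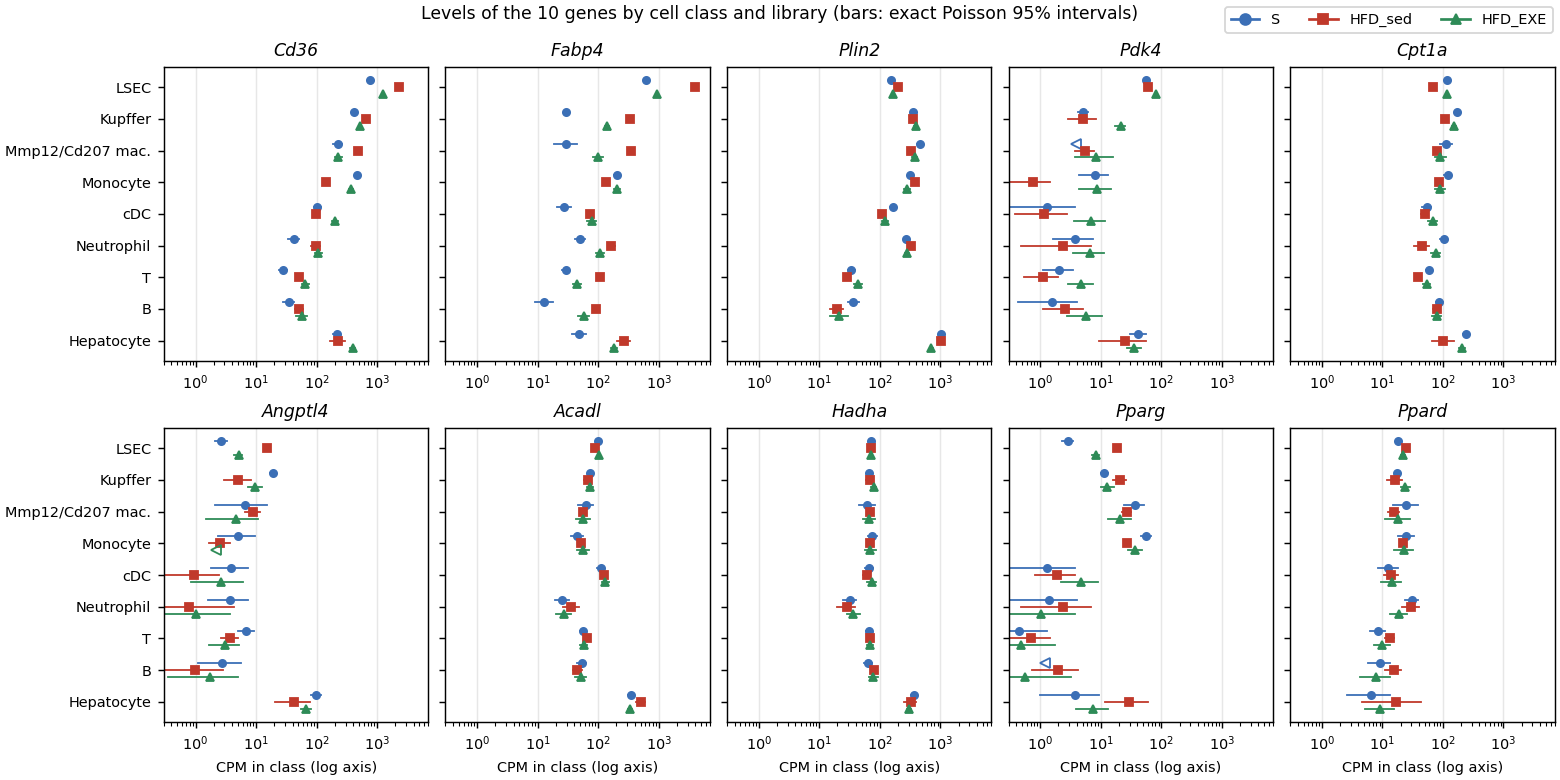
Level of each gene (CPM, log axis) in 9 cell classes of S (blue circles), HFD_sed (red squares) and HFD_EXE (green triangles), with exact Poisson 95% intervals as bars; an open triangle pointing left marks 0 UMIs, drawn at the level of 3 counts. In each library LSECs have the highest Cd36 and Fabp4 of the classes shown, up to 2269 and 3950 CPM in HFD_sed, whereas Acadl and Hadha differ little between the libraries.

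The uptake genes stood out in endothelium. Of all UMIs of Fabp4 in kept cells, 90.8% in S, 88.9% in HFD_sed and 92.1% in HFD_EXE were in endothelial cells, and of Cd36 66.5%, 81.5% and 87.7%. Endothelial cells made up 41.2%, 25.5% and 59.5% of the kept cells, so these shares also depend on the mix of cells in a library. Cd36 stood at 761 CPM in LSECs of S, 2269 CPM in HFD_sed and 1238 CPM in HFD_EXE. The HFD_sed library was the highest and S the lowest, and the 3 Poisson intervals did not overlap. The log2 ratio was 1.58 (1.55 to 1.599) for HFD_sed over S, −0.87 (−0.89 to −0.85) for HFD_EXE over HFD_sed and 0.70 (0.68 to 0.72) for HFD_EXE over S. Fabp4 stood at 620 CPM in S, 3950 CPM in HFD_sed and 932 CPM in HFD_EXE. Its order was the same with a wider range, at log2 ratios of 2.67 (2.65 to 2.69), −2.08 (−2.10 to −2.06) and 0.59 (0.56 to 0.61). The last lay just past 1.5-fold and was lost in other settings, at 0.44 with only cells of at least 2000 UMIs. A median LSEC held 4, 11 and 5 UMIs of Cd36 and 2, 15 and 3 UMIs of Fabp4 in S, HFD_sed and HFD_EXE. Of all 10 genes in LSECs, 4 were called higher and 1 lower in HFD_sed than in S (15.4% and 9.04% of the 15150 genes with enough UMIs). In HFD_EXE over HFD_sed 1 was higher and 4 were lower (8.36% and 13.5%), and in HFD_EXE over S 4 were higher and 0 lower (8.75% and 9.09%).

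The share of endothelial cells with these transcripts was also highest in HFD_sed. With every cell thinned to 1500 UMIs, a Cd36 UMI was found in 56.1% of the LSECs of S, with an exact binomial 95% interval from 54.5% to 57.6%. In HFD_sed the share was 92.5% (91.4% to 93.5%), and in HFD_EXE it was 72.0% (70.8% to 73.2%). For Fabp4 the thinned shares were 41.5%, 93.7% and 58.0%. Thinning left out 263, 210 and 646 shallower LSECs, and before it the shares were 79.1%, 95.03% and 85.3% for Cd36 and 66.9%, 96.3% and 77.2% for Fabp4. T-like cells were taken for comparison: 3.37%, 5.98% and 6.28% of them had a Cd36 UMI and 1.64%, 12.4% and 6.55% a Fabp4 UMI after thinning. Median depth was 6758, 5480 and 5390 UMIs in LSECs and 6155, 3166 and 5117.5 UMIs in T-like cells.

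The order also held inside the single clusters that could be compared, where cells of the libraries had been placed together without these genes. Only LSEC clusters 1 and 2 had at least 50 cells of S, and they held 3.87% and 7.64% of the HFD_sed LSECs. In both, Cd36 and Fabp4 were called higher in HFD_sed than in S. HFD_EXE over S was called for Fabp4 in both and for Cd36 in 1 (0.45 to 0.73). Fabp4 was called lower in HFD_EXE than in HFD_sed in all 5 LSEC clusters, and Cd36 in 4 of the 5, the fifth being cluster 4 at a log2 ratio of −0.50. In cluster 2, the LSEC cluster with the fewest UMIs per cell, Fabp4 stood at 853 CPM in S, 3177 CPM in HFD_sed and 1442 CPM in HFD_EXE. In cluster 1, mostly of S, Cd36 stood at 790 CPM in S, 2016 CPM in HFD_sed and 1306 CPM in HFD_EXE. At a finer resolution a small cluster with markers of larger vessels split off from the LSECs, and its Fabp4 was at 3679 CPM in 29 cells of S and 8808 CPM in 50 cells of HFD_sed. Its Cd36 was at 43.2 CPM in S and 1483 CPM in HFD_sed, from 8 and 431 UMIs.

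**Figure D2:**
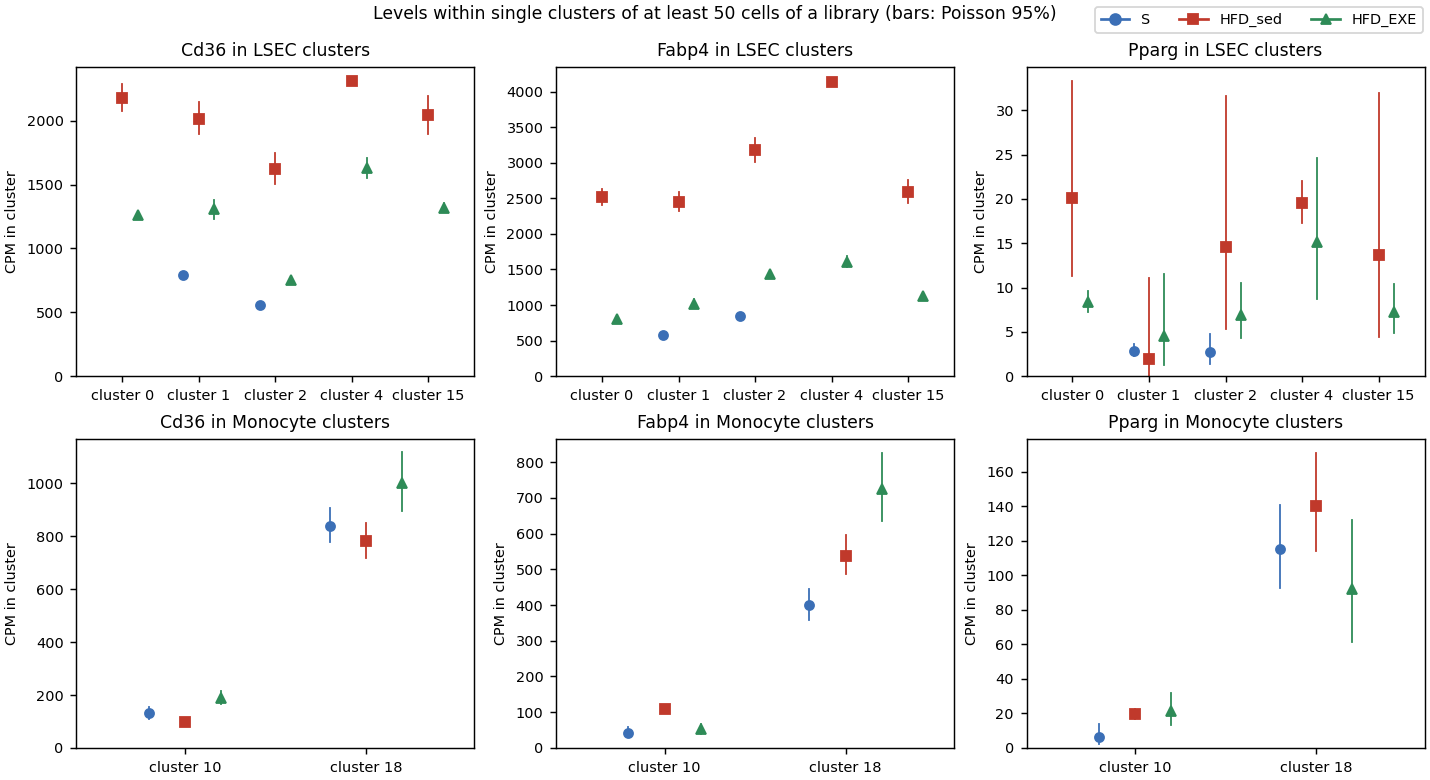
Levels (CPM, linear axis from 0) of Cd36, Fabp4 and Pparg within single LSEC clusters (top) and monocyte clusters (bottom), by library, with exact Poisson 95% intervals, for clusters with at least 50 cells of a library. Within each LSEC cluster shown the red squares of HFD_sed lie above HFD_EXE for Cd36 and Fabp4, and in monocytes cluster 18 is far above cluster 10 for all 3 genes.

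In macrophages Cd36, which also serves there as a scavenger receptor for oxidised lipoproteins, was less uneven. Kupffer-like cells, the resident macrophages of the sinusoids, held 421 CPM of Cd36 in S, 660 CPM in HFD_sed and 515 CPM in HFD_EXE. HFD_sed was called higher than S at 0.65 (0.58 to 0.72), while HFD_EXE over HFD_sed, at −0.36 (−0.44 to −0.27), was within 1.5-fold. LSEC markers were detected in these cells as well, all 9 of them in every library, with a summed level of 1277, 1321 and 2613 CPM. Their median level was 7.20%, 10.3% and 16.2% of that in LSECs of the same library, and Cd36 at that share of its LSEC level would give 54.8, 234 and 201 CPM. With that amount taken off, the log2 ratio of HFD_sed over S was 0.22 and no longer reached 1.5-fold, as was so with classes taken from marker means (0.48) or equal weight for each cell (0.51). Fabp4 in Kupffer-like cells stood at 29.4 CPM in S, 334 CPM in HFD_sed and 142 CPM in HFD_EXE, a log2 ratio of 3.50 (3.36 to 3.65) for HFD_sed over S. These levels were 4.74%, 8.45% and 15.2% of the LSEC level, below the share of the LSEC markers in each library. The part of endothelial RNA in the ratio was not tested. The low-UMI cluster 9 held more Fabp4 (874 CPM in HFD_sed) than the deeper cluster 3 (171 CPM). Across the 10 genes, 3 were called higher and 2 lower in HFD_sed than in S in Kupffer-like cells (7.69% and 6.69% of all genes), 2 and 2 in HFD_EXE over HFD_sed (9.14% and 6.34%), and 2 and 1 in HFD_EXE over S (12.3% and 9.16%).

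**Figure D3:**
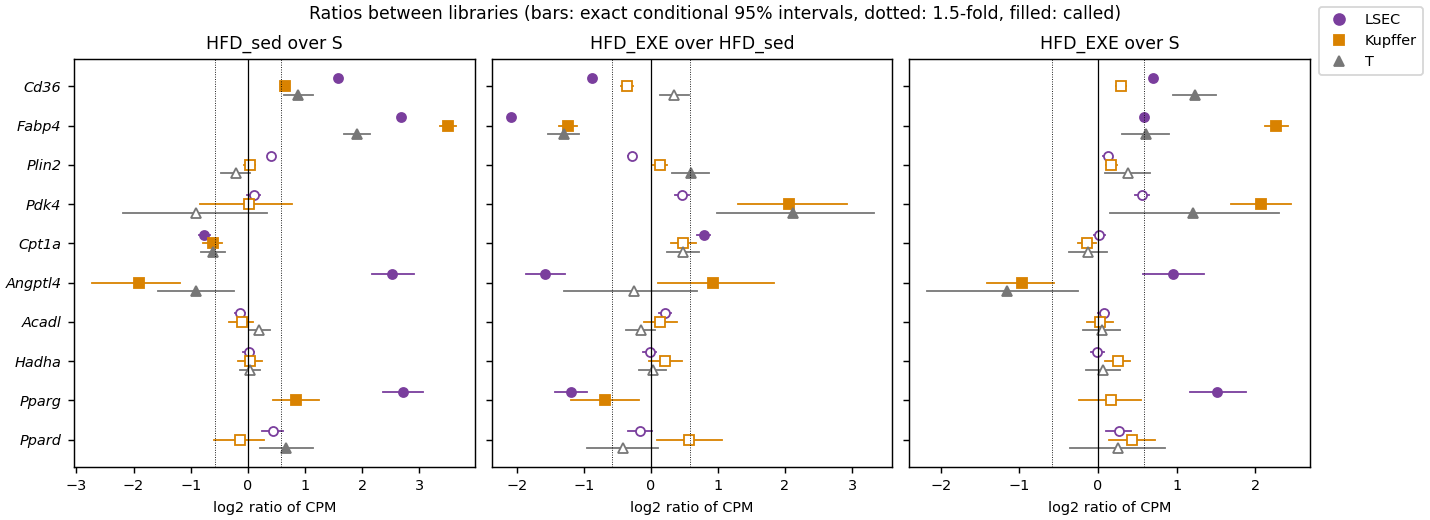
Log2 ratios of the 10 genes between libraries in LSECs (purple circles), Kupffer-like cells (orange squares) and T-like cells (grey triangles), with exact conditional 95% intervals; dotted lines mark 1.5-fold, filled markers are called and pairs under 20 UMIs are not drawn. Fabp4 lies to the right in HFD_sed over S in all 3 classes, and Angptl4 lies on opposite sides of 0 in LSECs (2.53) and Kupffer-like cells (−1.90).

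Monocyte-like cells gave another picture, and the mix of their clusters differed between libraries too. As a class they held 456 CPM of Cd36 in S, 143 CPM in HFD_sed and 372 CPM in HFD_EXE, and 206, 137 and 204 CPM of Fabp4. The class was called lower in HFD_sed than in S for Cd36 (−1.68), Fabp4 (−0.60), Pparg (−1.03) and Pdk4 (−3.41), 4 of 10 genes beside 18.8% of all genes, with none higher (7.74%). In HFD_EXE over HFD_sed, Cd36 (1.38) and Pdk4 (3.52) were called higher and none lower (11% and 4.23% of all genes). In HFD_EXE over S, Pparg alone was called, lower (9.69%; 5.55% of all genes were higher). Cluster 18, which carries Ace, a marker of the patrolling kind of monocyte, made up 57.4% of the monocyte-like cells in S, 12.7% in HFD_sed and 37.7% in HFD_EXE. This cluster held more of all 3 genes than cluster 10, led by Chil3 and Ccr2: in S its levels were 841 against 131 CPM for Cd36, 399 against 42.9 CPM for Fabp4 and 115 against 6.28 CPM for Pparg. Within cluster 10, Fabp4 was called higher in HFD_sed than in S at a log2 ratio of 1.33, and Pparg at 1.63, the opposite direction to the class. Cd36 in cluster 10 was at −0.42 and not called. Within cluster 18 no ratio of HFD_sed over S was called, with Cd36 at −0.10, Fabp4 at 0.43 and Pparg at 0.29. S had 84 and 113 cells in clusters 10 and 18, so these levels rest on few cells. The summed LSEC markers of the class were 2695 CPM in S, 449 CPM in HFD_sed and 2031 CPM in HFD_EXE, lowest in HFD_sed as the 4 genes were, and their part in these ratios was not tested. Pdk4, at 7.93, 0.746 and 8.55 CPM, lay within 1 CPM of the level given by the endothelial share.

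In T-like and B-like cells the levels of both uptake genes were of the order of the endothelial share. T-like cells held 27.8, 51.3 and 65.3 CPM of Cd36 in S, HFD_sed and HFD_EXE, which was 3.65%, 2.26% and 5.27% of the LSEC level. The LSEC markers in T-like cells stood at 3.68%, 2.37% and 5.58% of their LSEC level. Fabp4 in T-like cells was at 29.1, 109 and 44.3 CPM, or 4.70%, 2.76% and 4.76% of the LSEC level. Cd36 in B-like cells was at 34.5, 51.8 and 56.8 CPM, or 4.53%, 2.28% and 4.59% of the LSEC level. In B-like cells, with 12.9, 91.8 and 57.9 CPM, Fabp4 was at 2.09%, 2.32% and 6.21% of the LSEC level beside 2.95%, 2.11% and 4.24% for the markers. In neutrophil-like cells, with 49.8, 165 and 108 CPM, it was at 8.04%, 4.18% and 11.6% beside 4.99%, 3.88% and 9.74%. Some of these shares lay below those of the markers and others above. In S the single cell with the most Fabp4 held 38 of the 107 UMIs of neutrophil-like cells and 40 of the 198 of T-like cells. The part of endothelial RNA in the ratios of these classes was not tested. Directions that turned when it was taken off are given further on. T-like cells had 3 genes called higher and 2 lower in HFD_sed than in S (9.51% and 11.5% of all genes), among them Ppard higher at 0.66 (0.21 to 1.14). They had 2 higher and 1 lower in HFD_EXE over HFD_sed (9.49% and 8.75%), and 3 and 1 in HFD_EXE over S (6.22% and 6.75%). B-like cells had 2 higher and 1 lower in HFD_sed over S (6.51% and 5.6%), 0 and 2 in HFD_EXE over HFD_sed (4.98% and 5.76%), and 2 and 1 in HFD_EXE over S (5.63% and 5.29%). Neutrophil-like cells had 2 higher and 1 lower in HFD_sed over S (14.2% and 17.5%), 1 and 1 in HFD_EXE over HFD_sed (17.8% and 13%), and 2 and 1 in HFD_EXE over S (9.74% and 7.41%). In cDC-like cells 1 was higher and 1 lower in HFD_sed over S (5.46% and 8.23%), 1 higher and 0 lower in HFD_EXE over HFD_sed (11.4% and 5.27%), and 2 and 0 in HFD_EXE over S (10.8% and 6.32%).

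**Figure D4:**
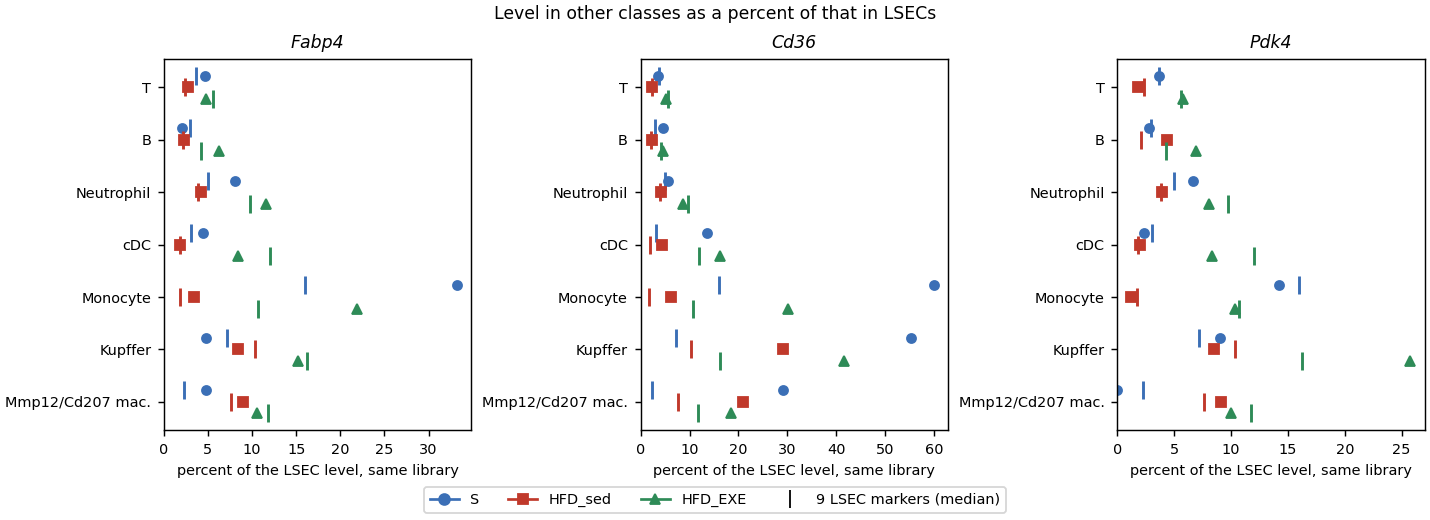
Level of Fabp4, Cd36 and Pdk4 in 7 classes as a percent of the level in LSECs of the same library (markers coloured by library); the vertical ticks give the median share of the 9 LSEC markers. In T-like cells markers and ticks lie together, at 2% to 6%, and Kupffer-like cells lie well to the right of their ticks for Cd36 but not for Fabp4.

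The storage gene varied little between libraries in macrophages and endothelium. Plin2, the coat protein of lipid droplets, stood at 348, 356 and 391 CPM in Kupffer-like cells, at 313, 382 and 281 CPM in monocyte-like cells and at 152, 201 and 165 CPM in LSECs of S, HFD_sed and HFD_EXE. No ratio of Plin2 in these 3 classes reached 1.5-fold, and the largest in size were 0.41 (0.34 to 0.47) in LSECs for HFD_sed over S and −0.44 (−0.60 to −0.29) in monocyte-like cells for HFD_EXE over HFD_sed. It was called lower in HFD_sed than in S in cDC-like cells, at 108 against 165 CPM (−0.61), and in B-like cells, at 19.5 against 36.5 CPM (−0.90). B-like cells were also called lower in HFD_EXE than in S (−0.76), and T-like cells higher in HFD_EXE than in HFD_sed (0.59). Neutrophil-like cells also carried it, at 270, 328 and 282 CPM, and T-like cells at 34.0, 29.3 and 44.1 CPM.

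Angptl4, a secreted inhibitor of lipoprotein lipase, went in opposite directions in endothelium and Kupffer-like cells. In LSECs it was at 2.64 CPM in S (83 UMIs), 15.2 CPM in HFD_sed (249 UMIs) and 5.12 CPM in HFD_EXE (174 UMIs), with log2 ratios of 2.53 (2.16 to 2.90) for HFD_sed over S and −1.57 (−1.86 to −1.29) for HFD_EXE over HFD_sed. In Kupffer-like cells it was at 18.9 CPM in S, 5.07 CPM in HFD_sed (16 UMIs) and 9.66 CPM in HFD_EXE, with log2 ratios of −1.90 (−2.72 to −1.19) and 0.93 (0.10 to 1.84). HFD_sed was thus the highest library in LSECs and the lowest in Kupffer-like cells, and the difference between the classes was not tested. S was the highest library in 6 of the 7 classes, though only 4 had enough UMIs for HFD_sed over S. T-like cells were also called lower in HFD_sed than in S, with 37 and 47 UMIs. Hepatocyte-like cells, which were not compared, had their lowest level in HFD_sed too. Both Kupffer clusters were called lower in HFD_sed than in S, at −2.06 and −1.48, and neither was called in HFD_EXE over HFD_sed. In LSECs only cluster 1 had enough UMIs for HFD_sed over S, with 67 UMIs in S and 0 in the 106 cells of HFD_sed. Setting that 0 to 3 counts gives an upper limit of 1.23, so the class ratio was called in no single cluster. In LSECs the call of HFD_EXE against HFD_sed held in clusters 0 and 4, while the UMIs in clusters 1 and 15 were too few and cluster 2 stood at 0.82 with its interval including no change.

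Pdk4, which turns pyruvate away from oxidation, was an endothelial transcript, with 87.3% to 90.0% of its UMIs in LSECs. It stood at 55.8 CPM in S, 59.7 CPM in HFD_sed and 82.3 CPM in HFD_EXE. HFD_EXE had the highest level in all 7 classes, but only 4 of them had enough UMIs for HFD_EXE over HFD_sed. B-like cells, for example, held 4, 8 and 10 UMIs in S, HFD_sed and HFD_EXE. In LSECs the ratios of HFD_EXE, 0.46 (0.36 to 0.57) over HFD_sed and 0.56 (0.48 to 0.65) over S, stayed below 1.5-fold. Within single LSEC clusters the ratio of HFD_EXE over HFD_sed was between 0.42 and 1.76 and was called in 4 of 5; these clusters hold few HFD_sed cells, except cluster 4. In Kupffer-like cells Pdk4 was at 5.03, 5.07 and 21.2 CPM, a call of 2.06 (1.30 to 2.92) for HFD_EXE over HFD_sed. The LSEC markers were highest there in HFD_EXE as well, and Pdk4 at their share would give 4.02, 6.16 and 13.3 CPM, so that 7.83 CPM of the HFD_EXE level was above it. The part of endothelial RNA in this ratio was not tested further.

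Of the genes of oxidation, Cpt1a, the gate for entry of long-chain fatty acids into mitochondria, was lowest in HFD_sed in all 7 classes. In LSECs it stood at 115, 67.6 and 116 CPM in S, HFD_sed and HFD_EXE, with S and HFD_EXE overlapping, and log2 ratios of −0.77 (−0.86 to −0.67) for HFD_sed over S and 0.78 (0.69 to 0.88) for HFD_EXE over HFD_sed. Kupffer-like cells held 168, 109 and 152 CPM and T-like cells 58.7, 38.4 and 53.6 CPM. HFD_sed over S was called lower in 4 of the 7 classes (LSEC, Kupffer-like, neutrophil-like and T-like), with ratios from −1.19 to −0.10 over all 7, and HFD_EXE over HFD_sed was called higher in 2. In B-like cells the 3 levels, 87.1, 79.1 and 79.5 CPM, gave ratios whose intervals included no change. Within LSEC clusters, HFD_sed was called below S in cluster 2 (−1.33) but not in cluster 1 (−0.57), and below HFD_EXE in 1 of 5 clusters, with ratios from 0.20 to 1.39.

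The 2 enzymes further along the pathway were even across libraries at the level of classes. Acadl, which starts the oxidation of long-chain acyl-CoA, and Hadha, part of the complex that completes each round, were not called in any class in any comparison. In LSECs Acadl stood at 98.3, 89.6 and 104 CPM and Hadha at 71.0, 71.6 and 70.5 CPM in S, HFD_sed and HFD_EXE. Across the 7 classes the ratios of Acadl lay between −0.25 and 0.47 in HFD_sed over S, and those of Hadha between −0.18 and 0.33. Within single clusters Acadl was less even. In LSECs it was called lower in HFD_sed than in S in 1 of 2 clusters (−0.75). HFD_EXE was called above HFD_sed in 1 of 5 LSEC clusters (ratios from −0.36 to 0.66), and above S in 1 of 2 monocyte clusters (0.67). Acadl was highest in cDC-like cells among the compared classes, at 110, 125 and 131 CPM, and lowest in neutrophil-like cells, at 25.6, 35.4 and 27.0 CPM.

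The receptors were low. Pparg had 90, 307 and 279 UMIs in LSECs, or 2.87 CPM in S, 18.8 CPM in HFD_sed and 8.21 CPM in HFD_EXE, with log2 ratios of 2.71 (2.37 to 3.07) for HFD_sed over S, −1.19 (−1.43 to −0.96) for HFD_EXE over HFD_sed and 1.52 (1.17 to 1.88) for HFD_EXE over S. This is the order of Cd36 and Fabp4 in the same cells. With free RNA taken off by hepatocyte markers, the ratio of HFD_EXE over HFD_sed was −0.05 and no longer called. Within LSEC clusters the order was less clear: in HFD_sed over S only cluster 1 had enough UMIs, 76 in S and 1 in HFD_sed, at −0.53 (−5.86 to 1.99), not called. HFD_EXE was below HFD_sed in the 4 clusters with enough UMIs, at −1.27 to −0.37, and called in 1 of them, cluster 0. In Kupffer-like cells Pparg stood at 11.4, 20.6 and 12.8 CPM, called higher in HFD_sed than in S at 0.85 (0.43 to 1.24) and lower in HFD_EXE than in HFD_sed at −0.68. The first was called in both Kupffer clusters and the second in 0 of 2, and with free RNA taken off by hepatocyte markers both turned, to −0.40 and 0.71. Monocyte-like cells held its highest level of the compared classes, 56.1, 27.4 and 37.1 CPM, with 93 of its 99 UMIs in S, but 99 of 294 in HFD_sed, in the Ace cluster. In S 78.8% of the UMIs of Pparg were in macrophages and monocytes and 18.2% in endothelium, against 31.6% and 61.2% in HFD_EXE, where endothelial cells were more numerous. T-like, B-like, cDC-like and neutrophil-like cells held fewer than 5 CPM. Ppard was spread more evenly, at 18.3, 24.7 and 22 CPM in LSECs and 17.8, 16.2 and 24.0 CPM in Kupffer-like cells, and was not called in either class. It was called higher in HFD_sed than in S in T-like and B-like cells, lower in HFD_EXE than in HFD_sed in B-like cells (−0.94) and lower in HFD_EXE than in S in neutrophil-like cells (−0.70).

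A list of 74 further genes of the pathway gave the setting. In LSECs 66 had enough UMIs in HFD_sed over S, of which 6 were called higher and 16 lower, beside 15.4% and 9.04% of all genes. The median ratio was −0.19, beside 0.08 for all genes. The higher ones were led by Hilpda, which blocks the lipase of lipid droplets (16.4 CPM in S, 149 CPM in HFD_sed, ratio 3.19), the binding protein Fabp5 (130 and 604 CPM, 2.22) and lipoprotein lipase Lpl (13 and 26.5 CPM, 1.03). The lower ones were led by the hepatocyte ω-hydroxylases Cyp4a10 (46.7 and 3.43 CPM, −3.77) and Cyp4a14 (57.3 and 4.35 CPM, −3.72) and the transporter Slc27a2 (16.2 and 4.41 CPM, −1.88). The 10 hepatocyte markers, all detected in LSECs of both libraries, summed to 1077 CPM in S and 534 CPM in HFD_sed. Their part in these ratios was not tested. Among the other PPAR targets 6 of 9 were called lower and 0 higher, among the oxidation genes 2 of 18 lower and 1 higher, and none of 8 receptors and cofactors was called. In HFD_EXE over HFD_sed in LSECs, 10 of 65 were called higher and 4 lower (all genes 8.36% and 13.5%). The higher were led by the uncoupling protein Ucp2 (183 to 574 CPM, 1.65), Cyp4a10 (1.67) and Cyp4a14 (1.38). The lower were led by Hilpda (−2.28), Fabp5 (−1.29) and Acsl3 (−1.32). In HFD_EXE over S (all genes 8.75% higher and 9.09% lower) 5 of 68 were higher, led by Fabp1 (92.4 and 231 CPM, 1.32), Ucp2 (0.95) and Fabp5 (0.93), and 12 lower, led by Cyp4a14 (−2.34), Cyp4a10 (−2.10) and Cidec (−2.44, below 1 CPM in both). Fabp1 also led the genes of the hepatocyte-like cluster. It was called higher in HFD_EXE than in S in every compared class, from 0.88 in B-like to 1.70 in Kupffer-like cells. The hepatocyte markers in LSECs summed to 1077 CPM in S and 549 CPM in HFD_EXE. The part of hepatocyte RNA in the Fabp1 ratios was not tested.

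**Figure D5:**
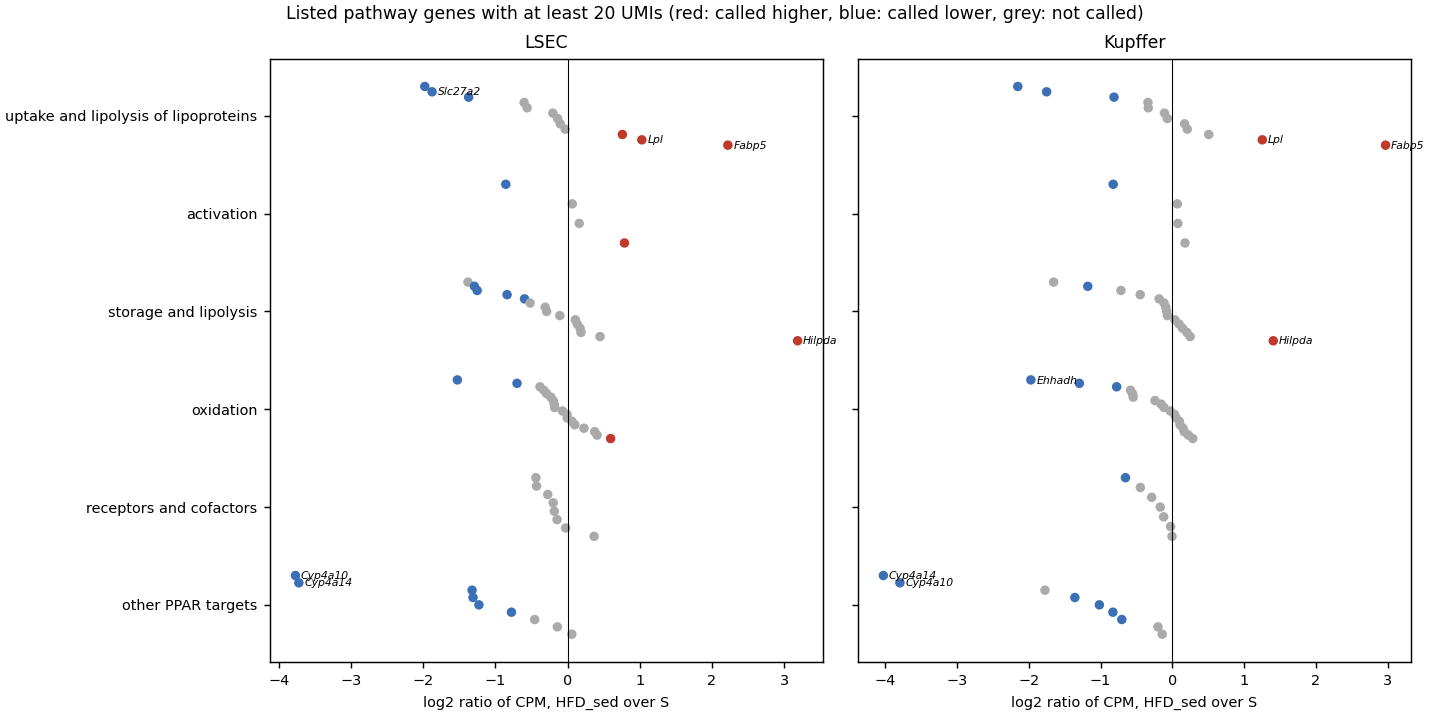
Log2 ratio of HFD_sed over S for the listed pathway genes with at least 20 UMIs, 1 dot each, in LSECs (left) and Kupffer-like cells (right), grouped by role; red dots are called higher, blue lower, grey not called, and the genes given in the text for this comparison are labelled. Hilpda, Fabp5 and Lpl are called higher in both classes and Cyp4a10 and Cyp4a14 lie lowest in both.

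In Kupffer-like cells 3 of 65 listed genes were called higher in HFD_sed than in S and 15 lower (all genes 7.69% and 6.69%), with a median of −0.12 beside −0.00 for all genes. The higher were Fabp5 (13.2 and 104 CPM, 2.97), Hilpda (51.1 and 135 CPM, 1.41) and Lpl (1295 and 3086 CPM, 1.25), the same 3 genes that led in LSECs. They also led in monocyte-like cells, at 1.52, 2.34 and 2.09. Lpl was far lower in LSECs, and the part of macrophage RNA in its LSEC ratio was not tested. Cyp4a14 (−4.03), Cyp4a10 (−3.79) and Ehhadh (−1.97), all abundant in hepatocytes, led the lower, with hepatocyte markers at 1931 CPM in S and 1062 CPM in HFD_sed. In HFD_EXE over HFD_sed (all genes 9.14% higher and 6.34% lower) 15 of 59 were called higher, among them Fabp1 (105 and 239 CPM, 1.20) and Cyp4a10 (1.67), and 2 lower, Fabp5 (−1.28) and Lpl (−0.70). In HFD_EXE over S (all genes 12.3% and 9.16%) 8 of 65 were higher, led by Fabp1 (1.70), Fabp5 (1.69) and Hilpda (1.55), and 8 lower, led by Cyp4a14 (−2.70), Cyp4a10 (−2.12) and Klf10 (−0.88). Fabp1 led the genes of the hepatocyte-like cluster, and the part of hepatocyte RNA in its ratios here was not tested either. Reads of the closely related Cyp4a genes can be split between copies, so their levels are uncertain.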

How the data were processed

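Per the labels' protocols, livers were digested and dissociated, red cells lysed and dead cells removed before 10x Genomics 3′ libraries were made. The submitters' processing notes name Cell Ranger, version 6.1.2, and the build GRCm39, without counting options. The values deposited by the authors are counts, UMIs by gene and barcode, not normalized. Cells with at least 500 UMIs, 300 genes and under 15% mitochondrial UMIs were kept. Doublets were removed above a shared Scrublet score of 0.219 (3.80% of cells in S, 2.96% in HFD_sed, 2.82% in HFD_EXE), because the automatic threshold marked 0 cells of HFD_EXE. Scanpy 1.11.5 and leidenalg 0.10.2 clustered the 3 libraries together without integration (2000 variable genes without the 10 genes and their pathway, 30 principal components, 15 neighbours, resolution 1.0). A cluster was named, as cells like a type, with at least 3 of that type's markers detected in a share of 0.2 of its cells and at a log2 difference of at least 1 from the median cluster (pseudocount 0.05). It was called mixed where another lineage scored 0.4 of the best. This naming rule was set after the clusters had been seen. No authors' annotation was used. UMIs were summed per class and library and set to CPM. A level of 0 takes the bound at 3 counts. Intervals used SciPy 1.17.1 and were tested on simulated Poisson counts, the model they assume, so that test cannot show how they hold under wider spread between cells. In LSECs the variance of Fabp4 UMIs per cell over their mean was 15.1 in S and 28.8 in HFD_sed. PCR duplicates are collapsed by UMIs, but cells are not replicates. The genes, lists and tests were chosen with earlier results of these data known. All 10 genes were named, with the 3 genes most correlated with each of the 10 that reached 20 CPM. For LSECs and Kupffer-like cells, up to 3 called genes of the list were named per direction and comparison, by the interval bound farthest from no change. Promoter windows came from RefSeq, GRCm38.p6, by symbol, and none of their coordinates was joined to the matrices. The values of 1 gene that this rule names are not reported here.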

Additional observations from a re-analysis of the deposited data

Results flagged for a closer look

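The ratios below went in opposite directions in 2 cell classes under the same comparison, each past 1.5-fold with an interval excluding no change. Every class comes from the same 1 library per group, and no difference between classes was tested. Cd36 was higher in HFD_sed than in S in LSECs (1.58) and lower in monocyte-like cells (−1.68), and in HFD_EXE over HFD_sed it was lower in LSECs (−0.87) and higher in monocyte-like cells (1.38). Fabp4 in HFD_sed over S was higher in Kupffer-like cells (3.50) and lower in monocyte-like cells (−0.60). The Kupffer-cell level was below the share of the LSEC markers in each library, and with doublets kept the monocyte ratio was 0.23. Pparg was higher in LSECs and lower in monocyte-like cells, at 2.71 and −1.03 in HFD_sed over S and at 1.52 and −0.60 in HFD_EXE over S. In the only LSEC cluster with enough UMIs for HFD_sed over S, Pparg was at −0.53 (−5.86 to 1.99) and not called. In monocyte-like cells the Ace cluster had a different share in each library, and within cluster 10 Fabp4 (1.33) and Pparg (1.63) were higher in HFD_sed than in S. Cd36 in HFD_sed over S was called in 0 of the 2 monocyte clusters, at −0.42 and −0.10.

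Angptl4 differed in sign between LSECs and Kupffer-like cells in all 3 comparisons. The ratios were 2.53 and −1.90 in HFD_sed over S, −1.57 and 0.93 in HFD_EXE over HFD_sed, and 0.95 and −0.97 in HFD_EXE over S. The LSEC ratio of HFD_sed over S was called in no single cluster. S had the highest Angptl4 in 6 of the 7 classes, so its lower level in HFD_sed than in S was not particular to Kupffer-like cells.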

How the results depend on the processing

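Ratios were recomputed under 13 other settings and 1 more that was added after seeing the data, which took endothelial RNA off the other classes. The counts of pairs of a gene and a class changed by over 1.5 times as follows. With classes taken from the highest marker mean per cell, 7 pairs were lower in HFD_sed than in S. With doublets kept, 3 were lower in HFD_EXE than in S. With a ratio of at least 2, 5 were lower in HFD_sed than in S, 5 higher and 5 lower in HFD_EXE than in HFD_sed, and 9 higher and 1 lower in HFD_EXE than in S. With free RNA subtracted by hepatocyte markers, 19 were lower in HFD_sed than in S, 34 higher in HFD_EXE than in HFD_sed and 26 higher in HFD_EXE than in S. That estimate is the median level of the hepatocyte markers in a class relative to their level in the whole library. It was 102% in Kupffer-like cells of HFD_sed and cannot be read as a share of UMIs. With endothelial RNA subtracted, 5 were higher and 12 lower in HFD_EXE than in S.

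Directions turned in these cases, and the cause was not tested except that the subtractions lower the level by construction. A level that a subtraction took to 0 or below was set to 3 counts. Where this befell both libraries, the ratio gives only their class UMI totals and nothing of the gene. At resolution 0.5, and with the 10 genes eligible for clustering, B-like cells gave −0.29 for Cd36 and −0.26 for Fabp4 in HFD_EXE over S. With doublets kept, Fabp4 in monocyte-like cells gave 0.23 in HFD_sed over S. With hepatocyte-marker subtraction, HFD_sed over S gave −7.12 for Cd36 and −0.40 for Pparg in Kupffer-like cells, −0.88 for Fabp4 in cDC-like cells, 0.76 for Cpt1a in neutrophil-like cells, −0.56 for Cd36 and for Fabp4 and −0.11 for Ppard in T-like cells, and −0.27 for Fabp4 in B-like cells. HFD_EXE over HFD_sed gave −0.77 for Pdk4 and 0.71 for Pparg in Kupffer-like cells, 1.25 for Fabp4 in T-like cells, and 0.80 for Fabp4 and 0.029 for Ppard in B-like cells, and HFD_EXE over S 0.53 for Plin2 in B-like cells. Both levels were at 3 counts for −0.88, 0.76, −0.56, −0.27, −0.77, 1.25, 0.80 and 0.53. HFD_sed alone was at 3 counts for −7.12, S alone for −0.11 and HFD_EXE alone for 0.029. Only the Pparg values had both levels above that bound. With endothelial RNA subtracted, cDC-like cells gave −2.15 for Fabp4 in HFD_sed over S, −0.12 for Cd36 in HFD_EXE over HFD_sed, and −0.63 for Cd36 and −2.37 for Fabp4 in HFD_EXE over S. Neutrophil-like cells gave −0.66 and 0.50 for Fabp4 in HFD_sed over S and HFD_EXE over HFD_sed, and −1.35 for Cd36 and −0.16 for Fabp4 in HFD_EXE over S. T-like cells gave −0.56 for Cd36 in HFD_sed over S and −3.14 for Fabp4 in HFD_EXE over S, and B-like cells 1.15 for Fabp4 in HFD_EXE over HFD_sed and −1.50 for Cd36 in HFD_EXE over S. Under this subtraction −0.56 again had both levels at 3 counts. For −2.37, −1.35 and −3.14 the HFD_EXE level was at 3 counts, so that bound sets their size.

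No called ratio in LSECs changed direction under these alternatives. HFD_sed over S ranged from 1.52 to 1.63 for Cd36, 2.57 to 2.94 for Fabp4, 2.50 to 5.80 for Pparg, 2.09 to 6.50 for Angptl4 and −3.04 to −0.73 for Cpt1a. The upper ends for Pparg and Angptl4 came from hepatocyte-marker subtraction. It took the S level of both genes to 0 or below, so S stood at the bound of 3 counts. HFD_EXE over S ranged from 0.44 to 0.86 for Fabp4, which did not always reach 1.5-fold, and HFD_EXE over HFD_sed from −1.24 to −0.05 for Pparg. Depth limits Pdk4, Angptl4 and Pparg outside LSECs, Kupffer-like and monocyte-like cells, where most pairs held under 20 UMIs. No paired analysis was possible because each group has 1 library and no test was made.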

Other observations

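Several classes had too few cells to be compared and are given as values only. Macrophage-like cells named by the markers Mmp12, Cd207, Cx3cr1, Ms4a7 and Mmp13 numbered 57, 552 and 106 in S, HFD_sed and HFD_EXE. They held 222, 474 and 228 CPM of Cd36, and 458, 334 and 380 CPM of Plin2. Their Fabp4, at 29.6, 353 and 98.2 CPM, was 4.78%, 8.93% and 10.5% of the LSEC level, beside 2.29%, 7.64% and 11.8% for the LSEC markers. Their Pparg stood at 36.1, 26.7 and 21.1 CPM. Hepatocyte-like cells, 121, 84 and 338 in number, held 1032, 1030 and 710 CPM of Plin2 and 342, 500 and 334 CPM of Acadl. Their Cpt1a stood at 244, 102 and 207 CPM and their Angptl4 at 98.4, 42.4 and 67.6 CPM, both lowest in HFD_sed. Natural killer-like cells of HFD_sed had 437 CPM of Fabp4 from 194 UMIs in 120 cells, 11.1% of the LSEC level beside 3.32% for the LSEC markers.

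Over the 21 sums of a class in a library, the Pearson correlation of log2(CPM + 1) described which genes were most alike; the sums of a library share its depth and free RNA. Cd36 and Fabp4 correlated at 0.81, Cd36 and Pdk4 at 0.80, Cd36 and Pparg at 0.76, and Hadha and Ppard at −0.41. Of 9203 eligible genes, Cd36 was most like Laptm4a (0.97), Tceal8 (0.96) and Kctd12b (0.96), and Fabp4 most like Ccn2 (0.95), Ctnnb1 (0.93) and Sox7 (0.92). Pdk4 was most like Shroom2 (0.99), Rapgef3 (0.98) and Hspg2 (0.98), and Plin2 most like Gab2 (0.97), Sirpa (0.95) and Gga1 (0.94). Pparg was most like Plod3 (0.93), Ldlrad3 (0.92) and Rap1a (0.90), and Ppard most like Pcyt1a (0.89), Bach1 (0.89) and Sec14l1 (0.88). Cpt1a was most like Aldh2 (0.87), Epn1 (0.85) and Apoe (0.84), Acadl most like Poglut1 (0.89), Dpysl2 (0.89) and Cldnd1 (0.88), and Hadha most like Mrps10 (0.97), Zfp277 (0.97) and Actl6a (0.96).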
